A study of Homo sapiens with 10 samples.

Results

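The insulin-like growth factor (IGF) receptors and the IGF-binding proteins were examined in HuCCT1, an established human cell line from a cholangiocarcinoma, which is a cancer of the bile ducts. The members were 10 genes, the receptor genes IGF1R, IGF2R and INSR and the binding-protein genes IGFBP1 to IGFBP7. They were represented by every probe set whose platform annotation names 1 of these genes and no other, which gave 29 of the 54613 probe sets tested. HuCCT1 cells carrying a construct labelled YAPS94A (5 arrays) were compared with HuCCT1 cells carrying an empty vector (5 arrays). Both were grown in the same serum-containing medium, so serum-borne growth factors were present in either group. YAP1 is the transcriptional co-activator restrained by the Hippo kinases. The labels and the title name the substitution S94A, known to weaken the contact of YAP1 with its TEAD partners, whereas the design text has S127A, a substitution that takes away a serine phosphorylated by the Hippo kinases. Which of them the cells carried cannot be told from the arrays, and the label is used here. No label says whether the arrays came from separate cultures or how many transfections they represent, so p-values reflect array-to-array spread only, which may be technical.

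In the IGF system the ligands IGF-I and IGF-II act through the IGF1R tyrosine kinase, and insulin acts through the related kinase INSR. IGF2R, also the cation-independent mannose 6-phosphate receptor, has no kinase. It takes up IGF-II for degradation and carries lysosomal enzymes from the Golgi. The secreted IGFBP proteins hold the ligands in the extracellular space, and proteases release the ligands by cutting the binding proteins. In bile duct epithelium and its tumours IGF signalling is known as a growth and survival pathway.

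Promoter sequences from RefSeq (build GRCh38.p14) were available for 8 of the 10 genes, IGFBP1 and IGFBP7 being the others. The 250 bases before each annotated start were searched on both strands for CATTCC, the core of the TEAD site, and for TCACGTGA, which is its own reverse complement and forms the centre of the element known from lysosomal genes. The second motif was chosen after the letters of the IGF2R promoter had been read. The 2 motifs do not overlap in these windows. The IGF2R window is shown because it belongs to the receptor gene that fell on every probe set, and the IGFBP6 and IGFBP5 windows because they were the member windows that held the TEAD core. Capitals mark the motif matches, and each window is written 5′ to 3′ on the strand of its gene.
IGF2R, chr6:159968832-159969081, plus strand: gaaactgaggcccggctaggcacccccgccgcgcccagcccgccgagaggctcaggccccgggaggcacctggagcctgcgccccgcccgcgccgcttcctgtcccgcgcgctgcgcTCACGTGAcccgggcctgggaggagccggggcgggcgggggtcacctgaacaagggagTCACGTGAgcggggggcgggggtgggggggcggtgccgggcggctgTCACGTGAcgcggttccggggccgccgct
IGFBP6, chr12:53097417-53097666, plus strand: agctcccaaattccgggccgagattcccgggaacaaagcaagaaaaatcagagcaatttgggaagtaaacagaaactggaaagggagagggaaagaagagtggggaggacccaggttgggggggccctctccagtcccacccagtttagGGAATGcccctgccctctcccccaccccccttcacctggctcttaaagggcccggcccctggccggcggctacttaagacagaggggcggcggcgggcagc
IGFBP5, chr2:216695550-216695799, minus strand: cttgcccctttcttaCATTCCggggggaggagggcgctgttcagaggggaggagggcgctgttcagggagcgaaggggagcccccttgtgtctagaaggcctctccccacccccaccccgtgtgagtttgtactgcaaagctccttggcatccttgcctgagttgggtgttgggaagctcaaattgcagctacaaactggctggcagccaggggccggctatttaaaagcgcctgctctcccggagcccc
The IGF2R window held TCACGTGA 3 times, beginning 133, 75 and 29 bases before the start. This motif occurred in 0.854% of 35116 windows of this length, and 3 or more copies occurred in 4 of them. Both windows of M6PR, the other mannose 6-phosphate receptor gene, held neither motif. The TEAD core lay 101 bases before the IGFBP6 start and 235 bases before the IGFBP5 start, and it occurred in 11.9% of all windows. None of the windows of IGF1R, IGF2R, INSR, IGFBP2, IGFBP3 and IGFBP4 held CATTCC. A match describes these letters only, and its absence says nothing about the factor.

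Values are deposited log2 signals, so that a difference of 1 is a 2-fold change, and differences are YAPS94A minus empty vector. They were tested with limma over all 54613 probe sets with Benjamini-Hochberg adjustment, and a probe set passed at an adjusted p below 0.05. Array medians lay between 6.25 and 6.28, and the lower quartile and median of all signals were 4.73 and 6.27. The YAP1 probe set of highest signal read 12.85 ± 0.18 in YAPS94A cells and 12.32 ± 0.22 in empty vector cells (SD, n = 5 each), a rise of 0.52 ± 0.11 (SE, limma adjusted p = 0.00384). The YAP1 probe sets 224895_at and 213342_at rose by 0.56 and 0.60 with separate groups (limma adjusted p = 0.00121 and 2.12e-05). On the brightest probe set the rise passed in 22 of 23 alternatives. The exception was the value relative to the median of its 30 nearest genes, where YAP1 was at 0.18 (adjusted p = 0.227, over all alternatives 6.16e-06 to 0.227). The biliary keratin genes KRT7 and KRT19 read 13.8 and 14.3 in YAPS94A cells, against 13.6 and 14.1 in empty vector cells, and EPCAM and SOX9 read 12.94 and 12.71, against 12.92 and 12.65. Of the 8 biliary markers measured 4 were higher, all of them keratins. Passing downward were 2, SPP1 at -0.79 and TFF1 at -1.18 (limma adjusted p = 0.000395 and 2.29e-08). SPP1, at 4.16 in YAPS94A cells and 4.95 in empty vector cells, had a mean below the lower quartile, which allows no statement on its direction. Of 10 hepatocyte markers 1 was higher (CYP2E1, 0.39) and 2 were lower (SERPINA1, -0.19, and FGB, -0.38). SERPINA1 was bright at 12.65 in YAPS94A cells and 12.84 in empty vector cells, while ALB lay below the lower quartile at 4.72 and 4.74. Fibroblast markers averaged 6.81 to 6.89 in YAPS94A arrays and 6.22 to 6.34 in empty vector arrays. Of these 8 markers, LUM and ACTA2 rose and none fell, while COL3A1 (4.60 in both groups) and DCN (6.10 and 6.11) lay below the median of all signals. The 3′ to 5′ difference of control transcripts, a measure of RNA quality, was 0.44 to 0.82 in YAPS94A arrays and 0.48 to 0.85 in empty vector arrays (exact permutation p = 0.556).

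Within the family, IGFBP1 rose and IGF2R fell, and the other changes were small. Of the 29 probe sets 4 passed upward (13.8%), 5 passed downward (17.2%) and 20 did not pass, while over all probe sets 13.9% passed upward and 14.7% downward. Shares this near the background are no result about the family as a whole. The groups did not overlap on 8 of the 29 (27.6%), against 23.0% of all probe sets. The median absolute difference was 0.13 for the members and 0.093 for all probe sets. Read at the probe set with the highest mean signal per gene, 3 genes were higher (IGF1R, IGFBP1 and IGFBP7), 1 was lower (IGF2R) and 6 did not pass, with 17.8% of 19775 genes higher and 16.6% lower. The 5 downward calls were 3 probe sets of IGF2R and 2 of INSR, while IGF1R gave 1 upward call. At the brightest probe set, 1 of the 3 receptor genes was higher, 1 was lower and 1 did not pass. The 16 probe sets of binding proteins gave 3 upward and no downward calls. Of the 9 calls, 7 held in each alternative analysis run.

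**Figure D1:**
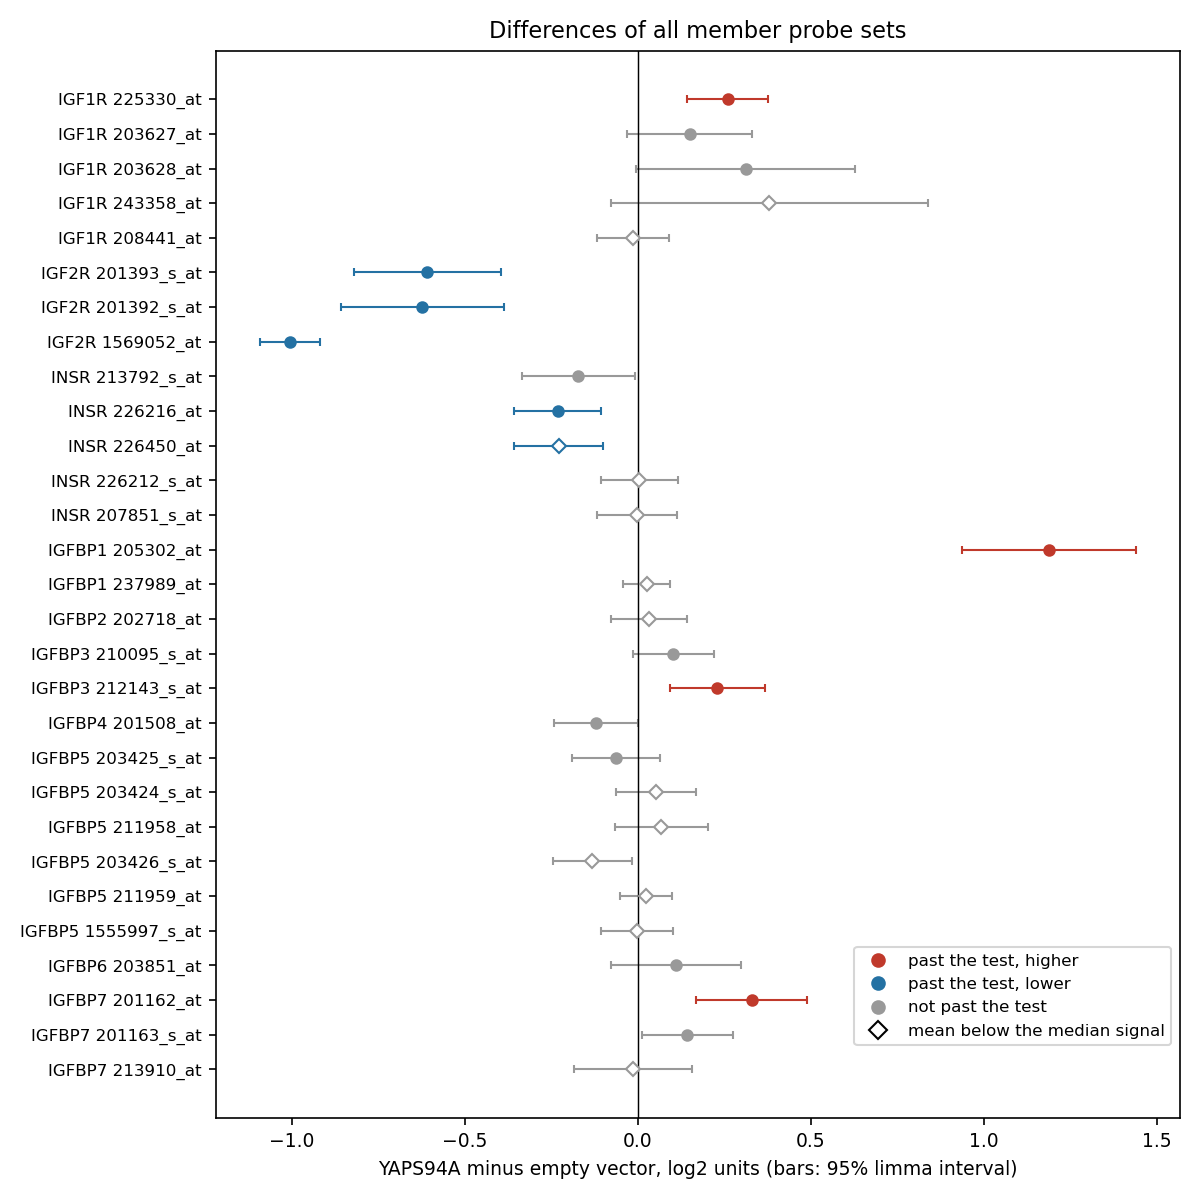
Difference of each of the 29 probe sets, YAPS94A minus empty vector, in log2 units on the x axis, with 95% limma intervals as bars. Red points passed the test upward, blue points passed downward, grey points did not pass, and open diamonds mark probe sets with a mean below the median signal. The IGFBP1 point at 1.19 and the 3 IGF2R points at -0.61, -0.62 and -1.00 stand farthest from 0.

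IGF2R, the clearance receptor for IGF-II, fell on all 3 of its probe sets. The probe set 201393_s_at read 9.43, 9.04, 9.41, 9.34 and 9.47 in YAPS94A arrays 1 to 5, against 9.71, 9.85, 9.95, 10.07 and 10.14 in empty vector arrays 1 to 5. The highest YAPS94A array lay below the lowest empty vector array. The means were 9.34 ± 0.17 and 9.95 ± 0.17 (SD, n = 5 each), and IGF2R fell by 0.61 ± 0.097 (SE), which is 1.52-fold (limma adjusted p = 0.00049). On 201392_s_at the YAPS94A arrays read 8.28 to 8.70 and the empty vector arrays 8.85 to 9.32, and the signal fell by 0.62 ± 0.11 (limma adjusted p = 0.000859). On 1569052_at the YAPS94A arrays read 6.21, 6.18, 6.09, 6.09 and 6.11, against 7.18, 7.16, 7.16, 7.14 and 7.08 in empty vector arrays. Here the groups lay farthest apart relative to their spread, and the signal fell by 1.00 ± 0.039, which is 2.01-fold (limma adjusted p = 4.82e-09). The fall on 1569052_at was larger than that on 201393_s_at by 0.40. The exact permutation p was 0.0238, and the adjusted p was 0.206 over the 13 pairs of probe sets compared. Even at the lowest possible p of 0.0079 a single pair could not pass this adjustment. The test therefore cannot decide whether the fall was unequal. For each of the 3 probe sets the two-sided exact permutation test reached 0.0079, the lowest value possible with 5 arrays per group.

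IGF2R lay among genes that were lower as well. Of the 30 nearest genes on chromosome 6 with signal above the median, 20 were lower and 3 higher, with a median difference of -0.18. Relative to that median IGF2R was at -0.42 on 201393_s_at (adjusted p = 0.00479 with the limma standard error), -0.44 on 201392_s_at and -0.82 on 1569052_at, and each passed. These p-values take the neighbour median as a fixed number, so the spread of the neighbours is not in them. Over all alternatives the difference on 201393_s_at ranged from -0.74 to -0.42 and its adjusted p from 3.67e-07 to 0.00479. In these bulk samples fewer cells of a kind and less RNA per cell cannot be told apart. The other mannose 6-phosphate receptor gene, M6PR, which also sorts lysosomal enzymes, fell by 0.75 ± 0.18 (limma adjusted p = 0.00806). M6PR read 9.97, 9.57, 10.24, 10.38 and 10.46 in YAPS94A arrays and 10.55, 10.53, 11.06, 11.07 and 11.16 in empty vector arrays, wide but separate groups. Its neighbours on its chromosome had a median of -0.36, and relative to them M6PR was at -0.39 and did not pass (adjusted p = 0.112, the highest of its alternatives, the lowest being 7.32e-06).

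IGF1R, the signalling receptor for both IGFs, rose slightly on its brightest probe set. The probe set 225330_at read 10.50, 10.30, 10.50, 10.45 and 10.52 in YAPS94A arrays, against 10.10, 10.24, 10.14, 10.23 and 10.28 in empty vector arrays. The groups did not overlap, although YAPS94A array 2 was only just above the highest empty vector array. The difference was 0.26 ± 0.053 or 1.20-fold (limma adjusted p = 0.00268). Relative to its 30 neighbours on chromosome 15, of which 10 were higher and 5 lower with a median of 0.15, it was at 0.11 and did not pass (adjusted p = 0.135, over all alternatives 0.000602 to 0.135). The dimmer IGF1R probe sets 203628_at, 203627_at and 243358_at had differences of 0.31, 0.15 and 0.38 with overlapping groups, and did not pass (limma adjusted p = 0.142, 0.222 and 0.22). With the replicate block 203628_at, 203627_at and 243358_at each passed (limma adjusted p = 0.00479, 0.0277 and 0.00759). Without the arrays numbered 1 and 2, and with the RNA quality covariate, 203627_at passed (adjusted p = 0.0319 and 0.0239), as did 243358_at (0.0257 and 0.0243). The probe set 208441_at, with signals of 4.02 and 4.03, lay below the lower quartile of all signals and differed by -0.013. It passed only relative to its neighbours, at -0.17 (adjusted p = 0.0172). That value is almost wholly the subtracted median of 0.15 and is no result about IGF1R.

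INSR, the insulin receptor gene, had 2 probe sets that passed downward, both of modest signal. On 226450_at the YAPS94A arrays read 5.88, 5.75, 5.78, 5.90 and 5.87, against 6.16, 5.99, 6.21, 6.0005 and 5.95 in empty vector arrays, with no overlap. The signal fell by 0.23 ± 0.059 (limma adjusted p = 0.0117), and this call was lost without the arrays numbered 1 and 2 (adjusted p = 0.0872, over all alternatives 0.00736 to 0.0872). On 226216_at the signal fell by 0.23 ± 0.057 (limma adjusted p = 0.00934), YAPS94A array 3 at 6.51 lying just above empty vector array 1 at 6.50. The brightest probe set, 213792_s_at, read 8.41 ± 0.12 in YAPS94A cells and 8.58 ± 0.14 in empty vector cells (SD, n = 5 each), with a difference of -0.17 ± 0.075 that did not pass (limma adjusted p = 0.119). It passed without empty vector array 3 (adjusted p = 0.0424), with the RNA quality covariate (0.023) and in the mean of the INSR probe sets (0.0157). The remaining INSR probe sets, 226212_s_at and 207851_s_at, lay near 4.3 in both groups.

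**Figure D2:**
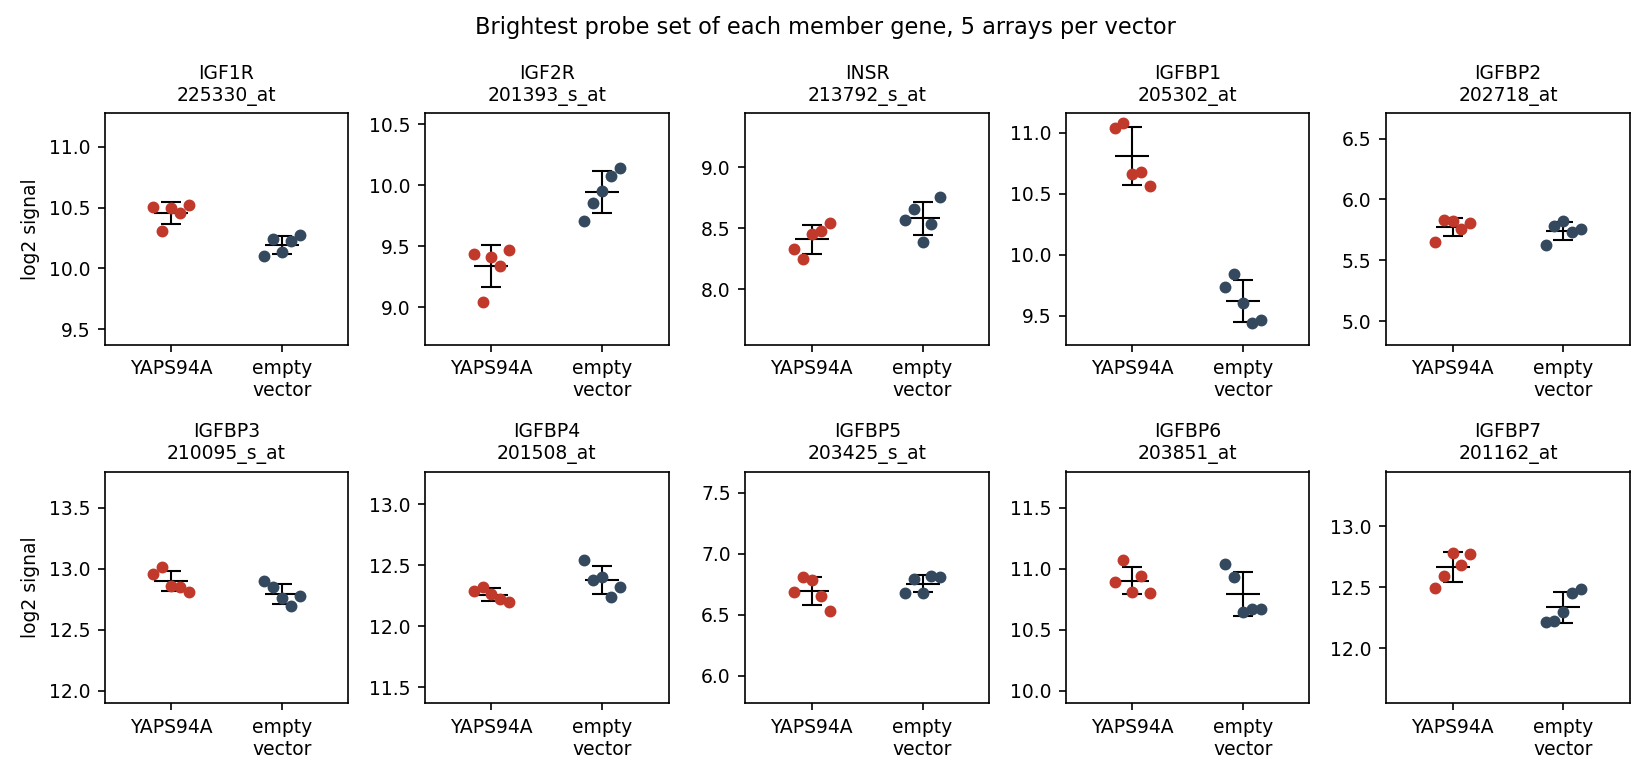
Log2 signal of the brightest probe set of each member gene in the 5 YAPS94A arrays (red, left) and the 5 empty vector arrays (dark, right). Points are single arrays, bars are the mean and SD, and every panel spans the same height in log2 units. IGFBP1 arrays read 10.57 to 11.08 with YAPS94A and 9.44 to 9.84 with empty vector, while the groups overlap for INSR and for IGFBP2 to IGFBP6.

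IGFBP1, a secreted binding protein best known from liver, where insulin represses its gene, had the largest rise of the family. The probe set 205302_at read 11.04, 11.08, 10.66, 10.68 and 10.57 in YAPS94A arrays, against 9.74, 9.84, 9.61, 9.44 and 9.46 in empty vector arrays. Every YAPS94A array lay above every empty vector array, and arrays 1 and 2 were the highest in either group. The means were 10.81 ± 0.24 and 9.62 ± 0.17 (SD, n = 5 each), a rise of 1.19 ± 0.11 or 2.28-fold (limma adjusted p = 9.17e-06). Without the arrays numbered 1 and 2 the rise was 1.13, and with the RNA quality covariate it was 1.25. Its 30 neighbours on chromosome 7 had a median of 0.014, with 8 higher and 7 lower. A second probe set, 237989_at, lay near the lowest signals of the arrays (3.38 and 3.35), below the lower quartile, and did not pass. In the mean of both probe sets the IGFBP1 rise was 0.61 (adjusted p = 7.62e-06).

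IGFBP3, the main IGF carrier of serum, is the chromosomal neighbour of IGFBP1 and differed far less. On 212143_s_at the YAPS94A arrays read 11.72, 11.72, 11.82, 11.84 and 11.81, against 11.35, 11.58, 11.50, 11.64 and 11.70 in empty vector arrays. The groups were separate, though empty vector array 5 came within a few hundredths of a unit of the YAPS94A arrays. IGFBP3 rose by 0.23 ± 0.063 on this probe set (limma adjusted p = 0.0157). On the brighter 210095_s_at the difference was 0.10 ± 0.054 (95% interval -0.015 to 0.22) and did not pass (limma adjusted p = 0.195). It passed with the RNA quality covariate (adjusted p = 0.0156) and in the mean of both probe sets (0.00148), within a range of 0.00148 to 0.37 over all alternatives. Both probe sets carry the _s_at suffix of probes shared between transcripts.

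IGFBP7, a matrix-associated member that binds IGFs weakly, rose on its brightest probe set. The probe set 201162_at read 12.49, 12.59, 12.78, 12.69 and 12.77 in YAPS94A arrays, against 12.21, 12.22, 12.30, 12.45 and 12.49 in empty vector arrays. The groups only just failed to meet, YAPS94A array 1 and empty vector array 5 both reading 12.49 to 2 decimals. The rise was 0.33 ± 0.073 or 1.26-fold (limma adjusted p = 0.00471). The second probe set, 201163_s_at, differed by 0.14 ± 0.060 and did not pass (limma adjusted p = 0.101), and it passed without YAPS94A array 5 (adjusted p = 0.0394) and relative to its neighbours (0.049). The dim 213910_at differed by -0.013. In the mean of the 3 probe sets the IGFBP7 rise was 0.15 (adjusted p = 0.0146). Of the 8 fibroblast markers, LUM and ACTA2 rose by 2.67 and 2.21 in the same arrays of this cell line. The other 6 did not pass, among them COL1A1 at -0.12, COL3A1 at -0.0031 and DCN at -0.011. Any relation of these genes to the IGFBP7 value was not tested.

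The other binding proteins gave no call. IGFBP4, the substrate of the protease PAPPA, read 12.29, 12.32, 12.26, 12.22 and 12.20 in YAPS94A arrays and 12.55, 12.38, 12.40, 12.24 and 12.33 in empty vector arrays. These overlap, with a difference of -0.12 ± 0.056 (95% interval -0.24 to 0.0019, limma adjusted p = 0.142). IGFBP6, which prefers IGF-II, read 10.90 ± 0.11 in YAPS94A cells and 10.79 ± 0.18 in empty vector cells (SD, n = 5 each), a difference of 0.11 ± 0.086 (limma adjusted p = 0.409). Without the arrays numbered 1 and 2 IGFBP6 was at 0.19 and passed (adjusted p = 0.0332, over all alternatives 0.0332 to 0.745). IGFBP2, a binding protein with an integrin-binding motif, read 5.78 ± 0.075 in YAPS94A cells and 5.74 ± 0.075 in empty vector cells, below the median of all signals, and differed by 0.032 (limma adjusted p = 0.707). The 6 probe sets of IGFBP5, which binds extracellular matrix, differed by -0.13 to 0.069 and none passed. Of these 203426_s_at was at -0.13 (limma adjusted p = 0.0863), and it passed without empty vector array 4 (0.0368). Of the 13 member probe sets with a mean below the median signal, 1 passed, the INSR probe set 226450_at. The share of all probe sets below the median that passed was not computed, so this count is no result about the members.

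**Figure D3:**
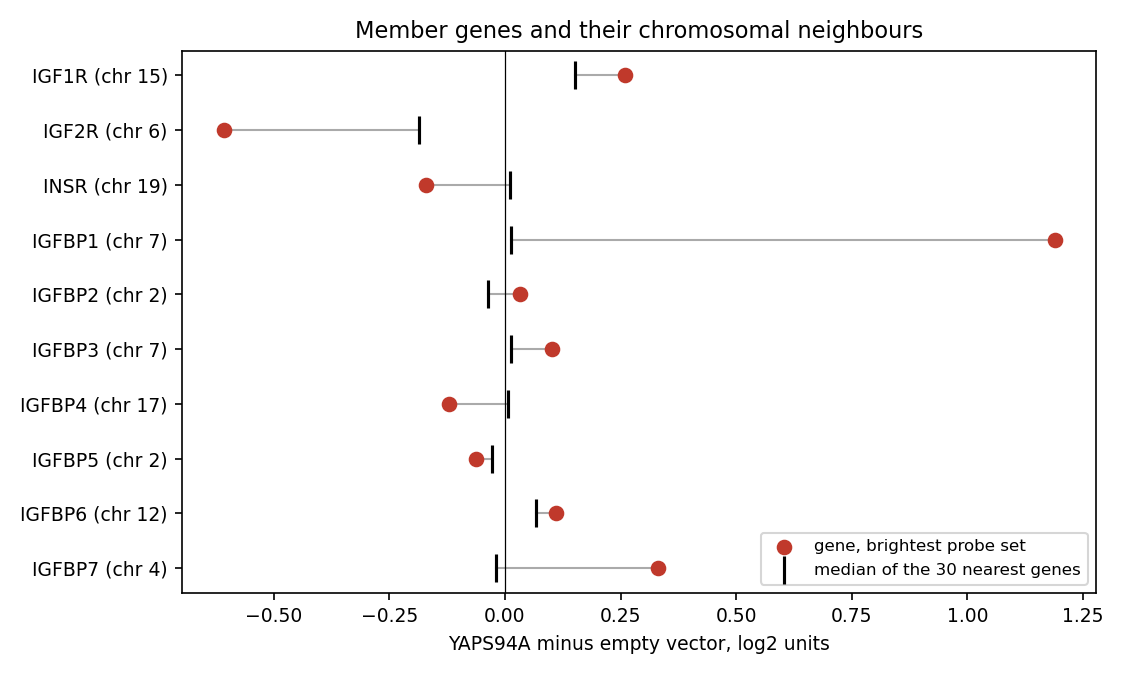
Difference of each member gene on its brightest probe set (red points) and the median difference of its 30 nearest genes on the same chromosome (black ticks), in log2 units, YAPS94A minus empty vector. IGFBP1 stands at 1.19 over a neighbour median of 0.014, whereas the IGF2R and IGF1R neighbourhoods lie at -0.18 and 0.15, on the same side of 0 as the genes.

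The genes most like IGFBP1 over the 10 arrays by Pearson correlation were SLFN13, SUMF1 and SH3YL1 (r = 0.995, 0.994 and 0.994), with differences of 0.61, 0.43 and 0.73. Those most like IGF2R were OSTM1, COX10-DT and COL8A1 (r = 0.993, 0.991 and 0.988), with differences of -0.28, -0.61 and -0.29. After removal of the group means, LINC00938, YWHAB and PPT1 followed IGFBP1 most closely (r = 0.986, 0.985 and 0.983), and GTF2A1, NONO and WDFY1 followed IGF2R (r = 0.985, 0.983 and 0.979). These genes were picked from 19775 on the same 10 arrays, which share array-to-array shifts, so the correlations are descriptions only.

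The rest of the pathway was read from lists of other IGF genes, at the brightest probe set of each. Among the ligands and their serum partner, 3 of 4 were measured by a probe set of their own and none passed. IGF1 read 6.70 ± 0.18 in YAPS94A cells and 6.72 ± 0.079 in empty vector cells (SD, n = 5 each). Its dimmer probe sets 209540_at, 209541_at and 241072_s_at had means of 4.29, 3.76 and 3.74, below the lower quartile. INS read 4.70 and 4.71, below the lower quartile as well. IGF2 was not analysed here. Over all 6 lists 66 genes were measured, of which 15 were higher, 13 lower and 38 did not pass. Over all 19775 genes 17.8% were higher and 16.6% lower, with a median difference of -0.0038. The counts below describe the listed genes and are not tests of a list.

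Proteases of the binding proteins and the inhibitors of these proteases gave 6 higher, 1 lower and 7 not past the test of 14, with a median of 0.084, beside 17.8% higher and 16.6% lower over all genes. HTRA1, a secreted serine protease that cuts IGFBP5, read 8.99, 9.15, 8.85, 8.82 and 8.68 in YAPS94A arrays, against 7.29, 6.96, 7.16, 7.003 and 6.78 in empty vector arrays. The groups lay far apart, and HTRA1 rose by 1.86 ± 0.10 or 3.63-fold (limma adjusted p = 9.23e-08). STC1, an inhibitor of the IGFBP4 protease PAPPA, fell by 0.44 ± 0.053 (limma adjusted p = 6.19e-05) on a probe set with the _x_at suffix, open to cross-hybridisation, and by 0.43 on 204595_s_at, while the dimmer 204596_s_at was at -0.13 and did not pass. Its paralogue STC2 rose by 0.33 ± 0.060 from a low signal (limma adjusted p = 0.00129), while the dimmer 203439_s_at was at 0.15 and did not pass (0.0906). STC2 lay among neighbours with a median of 0.23 and did not pass relative to them (adjusted p = 0.239, over all alternatives 0.00052 to 0.239). PAPPA itself read 6.19 and 6.14, near the median, and differed by 0.043 (limma adjusted p = 0.713). This was the brightest of its 11 probe sets, of which none passed and the dimmest had a mean of 3.40. ADAM12, a metalloprotease that cuts IGFBP3 and IGFBP5, rose by 0.34 (limma adjusted p = 0.000861). PLAT, the tissue plasminogen activator, named here after its value was seen, rose by 0.38 (limma adjusted p = 0.00437).

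Of 9 proteins related to the IGFBPs, 3 fell, none rose and 6 did not pass, with a median of -0.14, beside 16.6% lower and 17.8% higher over all genes. CCN2 fell by 1.48 ± 0.091, CCN3 by 0.65 ± 0.054 and CCN6 by 0.53 ± 0.053, all matricellular proteins with an IGFBP-like domain. CCN2 neighbours had a median of -0.31, and relative to them CCN2 was at -1.17 and passed (adjusted p = 1.38e-06 with the limma standard error). CCN3 neighbours had a median of 0.040, and relative to them CCN3 was at -0.69. CCN6 neighbours had a median of -0.27, and relative to them CCN6 was at -0.26. CCN1 was at -0.14 (limma adjusted p = 0.0735) and passed in 8 of 23 alternatives, and on its second probe set, 210764_s_at, CCN1 fell by 0.23 ± 0.045 with separate groups (0.0023).

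Receptor partners gave 2 higher, 3 lower and 5 not past the test of 10, beside 17.8% higher and 16.6% lower over all genes. TMEM219, a cell-surface receptor for IGFBP3, rose by 0.52 ± 0.070 (limma adjusted p = 0.000133), and the integrin gene ITGAV rose by 0.26 ± 0.038. ITGA5, the fibronectin receptor subunit that IGFBP1 binds through its RGD motif, fell by 0.67 ± 0.092 (limma adjusted p = 0.000153). PLAUR, the urokinase receptor, fell by 0.61 ± 0.052 and was at -0.40 relative to its neighbours, and M6PR fell as given above.

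Among the adaptors and the PI3K-AKT relay 6 of 27 genes rose, 6 fell and 15 did not pass, beside 17.8% higher and 16.6% lower over all genes, and the median was 0.026. FOXO1, a forkhead factor that AKT keeps out of the nucleus, read 11.53, 11.56, 11.42, 11.48 and 11.45 in YAPS94A arrays, against 10.20, 10.52, 10.31, 10.39 and 10.38 in empty vector arrays. FOXO1 rose by 1.13 ± 0.057 or 2.19-fold (limma adjusted p = 3.97e-08), and by 0.82 and 0.38 on 202723_s_at and 228484_s_at. FOXO4 rose by 0.47 and the docking protein gene GAB1 by 0.48, while FOXO3 fell by 0.23. The 30 genes nearest to FOXO3 had a median of -0.28, and set against this FOXO3 itself stood at 0.049 (adjusted p = 0.396, over all alternatives 0.000247 to 0.396). PIK3R3, a regulatory subunit of PI3K, fell by 0.46 on 202743_at, while its dimmer 211580_s_at was at 0.016 and the mean of both at -0.22. GAB1 was at 0.27 in the mean of its 7 probe sets, of which 3 did not pass. SOCS3, a feedback inhibitor, fell by 0.30 on its brightest probe set, and 2 of its 4 probe sets did not pass. IRS1, the main adaptor of both kinase receptors, rose by 0.18 ± 0.043 on its brightest probe set (limma adjusted p = 0.00876). There IRS1 did not pass without the arrays numbered 1 and 2 (adjusted p = 0.0622, over all alternatives 0.000304 to 0.0622), while relative to its neighbours it was at 0.28. The dimmer 242979_at and 238933_at were at 0.27 and 0.082 and did not pass (limma adjusted p = 0.0511 and 0.508). IRS2 differed by 0.085 on its brightest probe set (limma adjusted p = 0.124) and rose by 0.19 on 209184_s_at (0.00296). Among the IGF2 mRNA-binding proteins, IGF2BP3 rose by 0.35 ± 0.062 (limma adjusted p = 0.00107) and IGF2BP1 and IGF2BP2 did not pass.

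**Figure D4:**
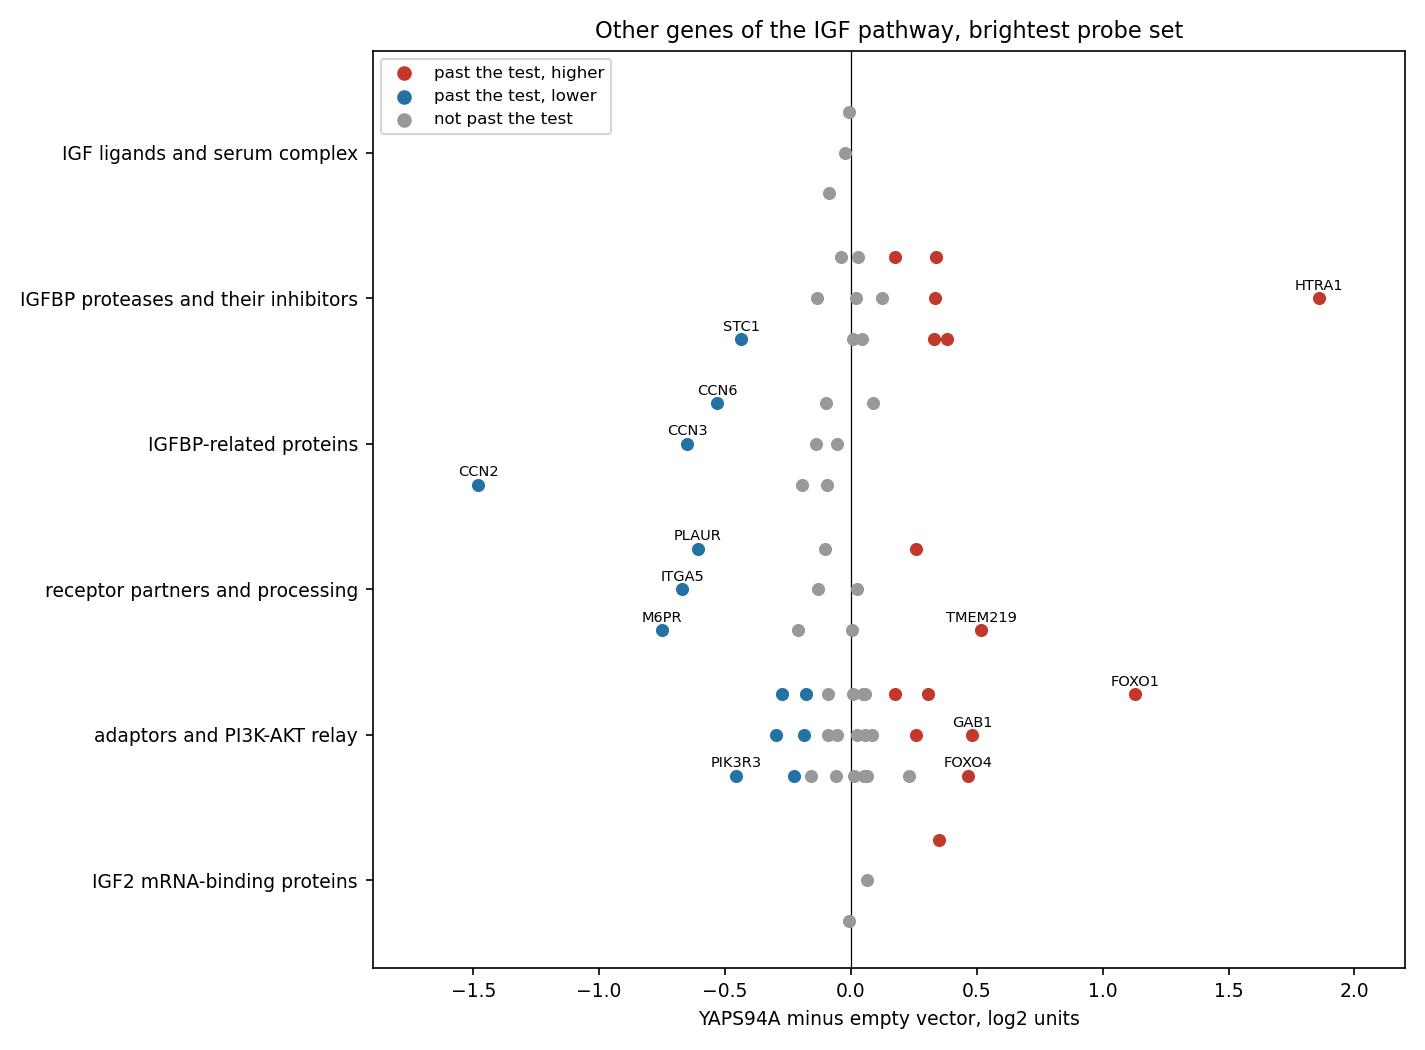
Differences of the 66 other IGF pathway genes by list, YAPS94A minus empty vector, in log2 units, each point 1 gene at its brightest probe set. Red passed upward, blue downward and grey did not pass. HTRA1 at 1.86 and FOXO1 at 1.13 stand farthest to the right and CCN2 at -1.48 farthest to the left, and named genes beyond 0.4 in size carry their symbols.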

How the data were processed

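Total RNA of HuCCT1 cells was hybridised to Affymetrix arrays, per the labels' protocols. The values are deposited log2 signals, 1 per probe set. The summarisation, background correction and normalization that the authors used are not given in the sources used here. Gene symbols came from GEO's annotation of the array platform. Of 54675 probe sets, 62 controls were left out, 41091 had 1 gene symbol, 1801 several and 11721 none. Groups followed the labels, 5 arrays each. limma 3.58.1 (R 4.3.3) was fitted to all 54613 probe sets without covariates, with Benjamini-Hochberg adjustment over all and a threshold of 0.05, and was checked on simulated data. The number of arrays limits the precision. Genes were read at the probe set with the highest mean among the 19775 genes with a 1-symbol probe set. Neighbours were the 30 nearest genes in RefSeq order with signal above the median. Values relative to neighbours had their median subtracted as a fixed number and kept the limma standard error of the probe set. Their p-values leave out the spread of the neighbours. Single values also had an exact permutation test over 252 splits.

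Array numbers were not treated as pairs in the main fit, because the labels state no pairing. Deviations from the group means of same-numbered arrays correlated between 0.063 and 0.543, all positive, so an effect shared by a number is possible. The 3′ to 5′ difference of arrays 1 to 5 was 0.68, 0.82, 0.54, 0.46 and 0.44 with YAPS94A. With empty vector it was 0.85, 0.68, 0.68, 0.52 and 0.48. Any relation of RNA quality to the shared deviations was not tested. With the replicate block 8855 probe sets passed upward and 9404 downward, against 7604 and 8039 in the main fit. The text names all members, YAP1, key genes of each list, and up to 3 higher and 3 lower genes per list with the smallest p. The members and lists were chosen with earlier results of these data known. Alternatives covered scaling, signal filters, probe-set choice, variance models, the replicate block, left-out arrays, RNA quality and neighbours.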

Additional observations from a re-analysis of the deposited data

Results flagged for a closer look

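In 3 of the 52 groups of 5 arrays formed by YAP1 and the 25 pathway genes taken by the naming rule, each at its brightest probe set, 1 array lay far from the other 4 by Dixon's test, and in the 58 groups of the 29 member probe sets there was none. Chance gives about 1 such group in 20. All 3 were YAPS94A array 2. This array had the largest 3′ to 5′ difference of control transcripts in its group, 0.82 against 0.44 to 0.68, and any relation to these values was not tested. IGF1 211577_s_at read 7.01 there, against 6.58 to 6.66 on the other YAPS94A arrays. STC1 204597_x_at read 10.37, against 10.51 to 10.55. IGF2BP3 203819_s_at read 10.80, against 11.02 to 11.10.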

How the results depend on the processing

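Of the 29 member probe sets, 18 had the same call in each alternative, and 7 of the 9 calls held in each, the exceptions being IGF1R 225330_at and INSR 226450_at as given above. The 4 upward calls became 7 with the replicate block, which added IGF1R 203628_at, 203627_at and 243358_at (adjusted p = 0.00479, 0.0277 and 0.00759), 7 without the arrays numbered 1 and 2 and 7 with the RNA quality covariate. The 5 downward calls became 3 among the 17 probe sets without _x_at and _s_at suffixes, where fewer were tested. With the block there were 5 downward calls, and 4 of 10 arrays correlated best with their own number. At gene level the 1 downward call became 2 in the mean of probe sets, 2 without those suffixes and 2 with the RNA quality covariate. Leaving out 1 array at a time gave 4 to 5 upward and 5 to 6 downward probe sets, 3 upward and 1 to 2 downward genes (2 without empty vector array 3), and 13 to 16 upward and 12 to 15 downward pathway genes. FOXO3 reversed to 0.049 relative to its neighbours, whose median was -0.28. Where no construction shows the cause, the cause was not tested. Probe sets below the lower quartile allow no statement on direction.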
